A study of Homo sapiens with 10 samples.

Results

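Tissue inhibitors of metalloproteases (TIMPs) and metalloproteases listed beside them were followed across 5 small interfering RNA (siRNA) groups. The genes were TIMP1, TIMP2, TIMP3 and TIMP4, the matrix metalloproteases MMP2, MMP14 and MMP15, and the membrane proteases ADAM9, ADAM10 and ADAM17. Whether each listed protease is a target of a TIMP was not tested. These 10 genes, of 18404 measured, were found by their gene symbol in the platform annotation and held 11 of 32321 probe sets, with 2 for TIMP3 and 1 for each other gene. They were chosen by name with results from these arrays already known, namely the levels of TIMP1 and TIMP3 with siRNAs against LOC440173 and of ADAM9 with the siRNA against PAXIP1-AS1. Differences from the control siRNAs are therefore given below as descriptions, with no test. Of the 3 genes so named, TIMP1 was lower with only 1 of the LOC440173 siRNAs, as its array values show.

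The cells were HEK-293, a line derived from human embryonic kidney that is known to carry some neuronal features. Each of the 5 groups held 2 arrays, which the labels call biological replicates without naming separate cultures, and RNA was taken 48 hours after transfection. LOC440173, a long non-coding RNA, was targeted by 2 siRNAs at 10 nM beside a control siRNA at 10 nM, and PAXIP1-AS1, another long non-coding RNA, by 1 siRNA at 100 nM beside the same control at 100 nM. All groups carried the same transfection reagent, and no group was left untransfected. Values are log2 levels as deposited, so a difference of 1 is a doubling, and errors of differences are standard errors (SE) of a single limma fit over all 10 arrays.

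TIMPs are small secreted proteins that bind the zinc of an active metalloprotease and block it. TIMP3 differs from the other family members in binding tightly to the extracellular matrix and in blocking ADAM17, while TIMP2 also takes part in the activation of pro-MMP2 by MMP14 at the cell surface. ADAM proteases cut receptors, growth factors and adhesion proteins from the cell surface, a step called shedding, and matrix metalloproteases cut collagens, laminins and other matrix proteins as well as cell surface proteins. In the kidney, TIMP3 and ADAM17 are known for their opposing parts in matrix turnover and growth factor shedding.

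The sequences just before the transcription starts of TIMP1 and TIMP3 are shown because these inhibitors had the lowest levels, relative to control, of the 10 genes with siRNA 2. Of the 10 genes, 7 had an entry in the RefSeq promoter table (build GRCh38.p14). Each line gives the 250 bases before the start, 5′ to 3′ on the + strand, from chrX:47582186-47582435 for TIMP1 and chr22:32801455-32801704 for TIMP3. Capitals mark matches, on either strand, to the GC box GGGCGG, the CCAAT box CCAAT and the AP-1-like heptamer TGAGTAA, letters chosen after these sequences had been read.
TIMP1: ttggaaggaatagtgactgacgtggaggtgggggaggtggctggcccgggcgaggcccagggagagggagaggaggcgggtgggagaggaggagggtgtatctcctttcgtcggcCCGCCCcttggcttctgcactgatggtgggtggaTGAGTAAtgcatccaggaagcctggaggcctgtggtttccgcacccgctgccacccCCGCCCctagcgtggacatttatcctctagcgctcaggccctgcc
TIMP3: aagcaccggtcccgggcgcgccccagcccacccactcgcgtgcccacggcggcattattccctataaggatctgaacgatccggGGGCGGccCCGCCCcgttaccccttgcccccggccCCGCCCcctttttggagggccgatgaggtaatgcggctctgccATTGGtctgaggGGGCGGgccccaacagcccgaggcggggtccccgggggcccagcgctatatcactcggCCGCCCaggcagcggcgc

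Searched over 250 bases before to 50 after the start, the TIMP1 promoter held 2 GC boxes and 1 TGAGTAA, and the TIMP3 promoter held 5 GC boxes and 1 CCAAT. Among 35116 promoters of the same length, GGGCGG was present in 45%, CCAAT in 34.6% and TGAGTAA in 2.57%. The letters were chosen after the TIMP1 and TIMP3 sequences had been read, so nothing is read from a match beside its share. Neither the AP-1 consensus TGANTCA (7.71% of promoters) nor TATAAA (11.5%) was found in the windows of the 7 genes. GC content was 65% for TIMP1 and 72.7% for TIMP3. No motif was shared by TIMP1 and TIMP3 other than the GC box, which ADAM17 held 3 times, MMP15 5 times and TIMP4, MMP14 and ADAM10 once each. In the RefSeq annotation TIMP1 lies inside the synapsin gene SYN1, TIMP3 inside SYN3 and TIMP4 inside SYN2, while TIMP2 has no such host gene.

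LINC02893, the current name of LOC440173, fell by 0.96 (SE 0.099) with siRNA 1, to 51.4% of the 10 nM control, and fell by 1.89 with siRNA 2, to 27.0% (limma, adjusted p = 0.000305 and 1.38e-05). PAXIP1-AS1 had 0 listed probe sets, so its silencing was not analysed here. Over probe sets, which are not independent, the 2 arrays of a group had r = 0.994 to 0.997, and array medians lay between 7.06 and 7.12. Of 11 measured HEK-293 markers, 6 were above the median on every array (NEFL, NEFM, INA, VIM, KRT18 and EYA1) and 3 were below it on every array. All 5 endothelial, 4 blood and 4 hepatocyte markers were below it on every array, while COL1A1 alone of 8 fibroblast and KRT14 alone of 4 keratinocyte markers were above. In this fit siRNA 1 changed 28.8% of all genes at an adjusted p under 0.05 (12.1% higher, 16.7% lower), siRNA 2 changed 30% (12.5% higher, 17.4% lower) and the PAXIP1-AS1 siRNA changed 4.62% (2.86% higher, 1.76% lower). Genes past that threshold are named called.

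**Figure D1:**
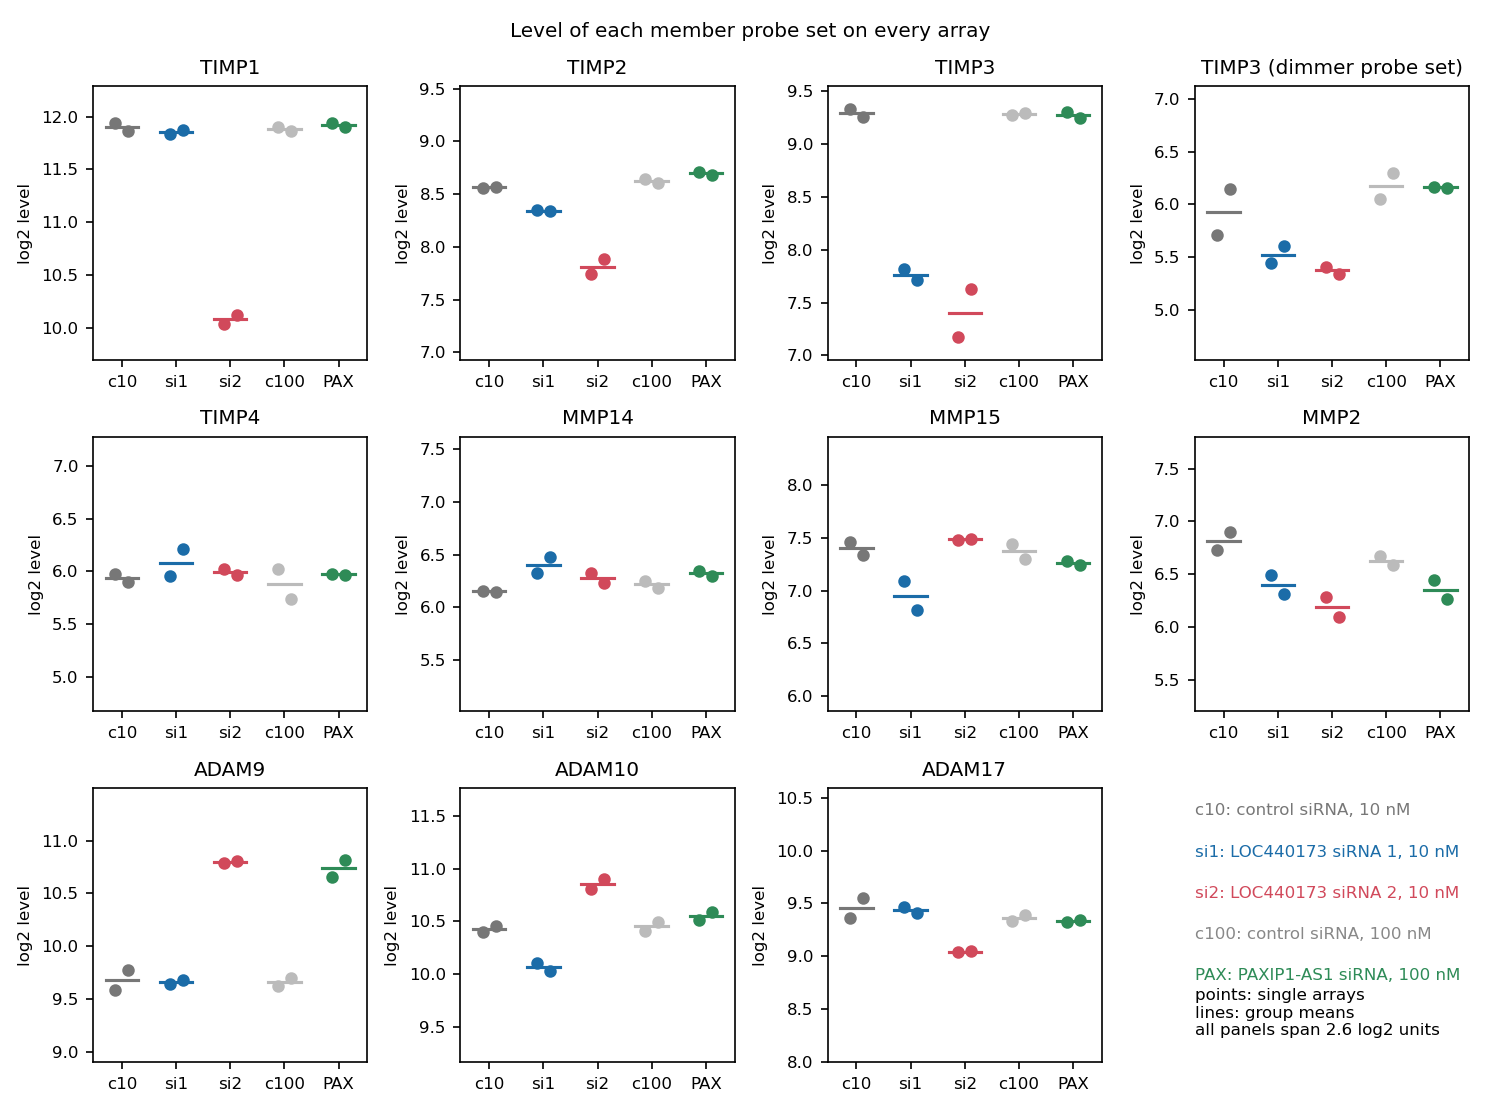
Log2 level (y axis; every panel spans 2.6 units, with its own origin) of each probe set on each array, for the control at 10 nM (c10), LOC440173 siRNA 1 (si1) and siRNA 2 (si2), the control at 100 nM (c100) and the PAXIP1-AS1 siRNA (PAX). Points are single arrays and lines are group means of 2 arrays: TIMP1 is low with siRNA 2 only, TIMP3 is low with both LOC440173 siRNAs, and ADAM9 is high with siRNA 2 and with the PAXIP1-AS1 siRNA.

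Among the inhibitors, TIMP1, a broad metalloprotease inhibitor that also acts on cell growth, read 11.94 and 11.87 on the arrays of the 10 nM control, 11.83 and 11.87 with siRNA 1 and 10.04 and 10.12 with siRNA 2. It read 11.90 and 11.87 in the 100 nM control and 11.94 and 11.90 with the PAXIP1-AS1 siRNA. Both siRNA 2 arrays lay below all 8 others, and the other 4 groups overlapped with their neighbours in the order of means. With siRNA 2 the difference from control was -1.82 (SE 0.055), or 28.3% of the control level, against -0.05 (SE 0.055) with siRNA 1 and 0.04 with the PAXIP1-AS1 siRNA. TIMP1 was thus low with the siRNA that left the least LINC02893 and near its control with the other. Whether its level follows that of LINC02893 was not tested.

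TIMP3, the matrix-bound inhibitor, read 9.33 and 9.25 in the 10 nM control, 7.81 and 7.71 with siRNA 1 and 7.17 and 7.63 with siRNA 2. In the 100 nM control it read 9.28 and 9.29, and with the PAXIP1-AS1 siRNA 9.31 and 9.25. All 4 arrays of the LOC440173 siRNAs lay below the other 6, among which the groups overlapped. The differences from control were -1.53 (SE 0.13) with siRNA 1 and -1.89 with siRNA 2, which left 34.7% and 27.0% of the control level. The siRNA 2 arrays were the most spread of the 5 groups for this probe set (SD 0.33, n = 2).

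The dimmer TIMP3 probe set, annotated with the single accession X77690, read 5.71 and 6.14 in the 10 nM control, 5.44 and 5.60 with siRNA 1 and 5.41 and 5.34 with siRNA 2. The 100 nM control gave 6.05 and 6.30 and the PAXIP1-AS1 siRNA 6.17 and 6.16. Its differences were -0.40 (SE 0.15) with siRNA 1 and -0.55 with siRNA 2, so both probe sets were lower with both siRNAs and the sizes differed. By number the dimmer probe set lies between those of SYN3 and of the gene MB, and which transcript or strand it reads was not tested. Its mean level was above that of 22.8% of genes. With the mean of both probe sets standing for the gene, the differences were -0.97 and -1.22.

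TIMP2, which both inhibits MMP2 and helps MMP14 to activate it, read 8.56 and 8.57 in the 10 nM control, 8.35 and 8.34 with siRNA 1 and 7.74 and 7.89 with siRNA 2. Its values were 8.64 and 8.60 in the 100 nM control and 8.71 and 8.69 with the PAXIP1-AS1 siRNA. No neighbouring groups overlapped in the order siRNA 2, siRNA 1, 10 nM control, 100 nM control and PAXIP1-AS1 siRNA. The step between the controls was 0.06 and that from the 100 nM control to the PAXIP1-AS1 siRNA 0.08 (SE 0.058 each). These steps were near their errors, and non-overlap of 2 arrays a group says little by itself. The differences from control were -0.22 (SE 0.058) with siRNA 1 and -0.75 with siRNA 2, the latter being 59.5% of the control level.

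TIMP4, an inhibitor best known from heart and brain, had no such pattern, at a mean level above that of 24.6% of genes. Its arrays ran from 5.74 in the 100 nM control to 6.21 with siRNA 1, each group overlapped with its neighbours, and its differences were 0.14 (SE 0.11) with siRNA 1, 0.05 with siRNA 2 and 0.09 with the PAXIP1-AS1 siRNA.

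Among the matrix metalloproteases, MMP2 (gelatinase A, which degrades type IV collagen) read 6.73 and 6.90 in the 10 nM control, 6.49 and 6.31 with siRNA 1 and 6.28 and 6.10 with siRNA 2. In the 100 nM control it read 6.67 and 6.59, and with the PAXIP1-AS1 siRNA 6.45 and 6.26. All 6 arrays of the target siRNAs lay below the 4 control arrays, and the 3 target siRNA groups overlapped with their neighbours. The differences from their controls were -0.42 (SE 0.10), -0.63 and -0.27 for siRNA 1, siRNA 2 and the PAXIP1-AS1 siRNA.

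MMP14, the membrane-bound activator of pro-MMP2, ran from 6.15 in the 10 nM control to 6.48 with siRNA 1. Its differences were 0.25 (SE 0.066) with siRNA 1, 0.13 with siRNA 2 and 0.11 with the PAXIP1-AS1 siRNA. MMP15, a second membrane-type protease, read 7.46 and 7.34 in the 10 nM control, 7.09 and 6.82 with siRNA 1 and 7.48 and 7.49 with siRNA 2. It was low with siRNA 1 only, by -0.45 (SE 0.095), and differed by 0.08 with siRNA 2 and by -0.11 with the PAXIP1-AS1 siRNA. MMP2 was thus lower where MMP14 was not, but both read low. Their mean levels were above those of 32.2% and 29.2% of genes, and differences at such levels are uncertain.

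Among the membrane proteases, ADAM9, a sheddase of heparin-binding EGF and other surface proteins, read 9.59 and 9.78 in the 10 nM control, 9.64 and 9.68 with siRNA 1 and 10.78 and 10.80 with siRNA 2. In the 100 nM control it read 9.63 and 9.70, and with the PAXIP1-AS1 siRNA 10.66 and 10.81. The siRNA 2 and PAXIP1-AS1 siRNA arrays overlapped each other and lay above the other 6, which also overlapped. The difference from control was 1.11 (SE 0.079; 2.16-fold) with siRNA 2, 1.07 (2.11-fold) with the PAXIP1-AS1 siRNA and -0.02 with siRNA 1. These values come from different controls and different doses, 10 nM and 100 nM. In the PAXIP1-AS1 group the mean level of the HEK-293 markers was 8.57 and 8.59 against 8.77 and 8.84 in its control. With siRNA 1 this mean was 8.69 and 8.71 and with siRNA 2 8.69 and 8.76, against 8.76 and 8.79 in the 10 nM control. The part of the marker levels in the ADAM9 level was not tested.

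ADAM10, the main sheddase of Notch receptors, cadherins and ephrins, read 10.40 and 10.45 in the 10 nM control, 10.10 and 10.03 with siRNA 1 and 10.81 and 10.90 with siRNA 2. The 100 nM control gave 10.41 and 10.49 and the PAXIP1-AS1 siRNA 10.51 and 10.59. The LOC440173 siRNAs lay on opposite sides of the control, by -0.36 (SE 0.062) with siRNA 1 and 0.43 with siRNA 2, with no overlap. The PAXIP1-AS1 siRNA differed by 0.10.

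ADAM17, which releases TNF and ligands of the EGF receptor and is the main ADAM target of TIMP3, read 9.36 and 9.55 in the 10 nM control, 9.46 and 9.41 with siRNA 1 and 9.04 and 9.05 with siRNA 2. In the 100 nM control it read 9.34 and 9.39, and with the PAXIP1-AS1 siRNA 9.32 and 9.34. Both siRNA 2 arrays lay below all others. The difference from control was -0.41 (SE 0.068) with siRNA 2, -0.01 with siRNA 1 and -0.03 with the PAXIP1-AS1 siRNA.

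Over the 10 genes, the fit called 6 in siRNA 1 against control (28.8% of all genes were called), 7 with siRNA 2 (30% of all genes) and 1, ADAM9, for PAXIP1-AS1 (4.62%). Nothing is read from these counts, since the genes were chosen with these contrasts known. The count of 6 for siRNA 1 was 2 without siRNA 1 replicate 2 and 3 without 10 nM control replicate 2. Median differences over the 10 genes were -0.14, -0.18 and 0.06, beside 0.05, 0.01 and -0.01 over all genes.

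**Figure D2:**
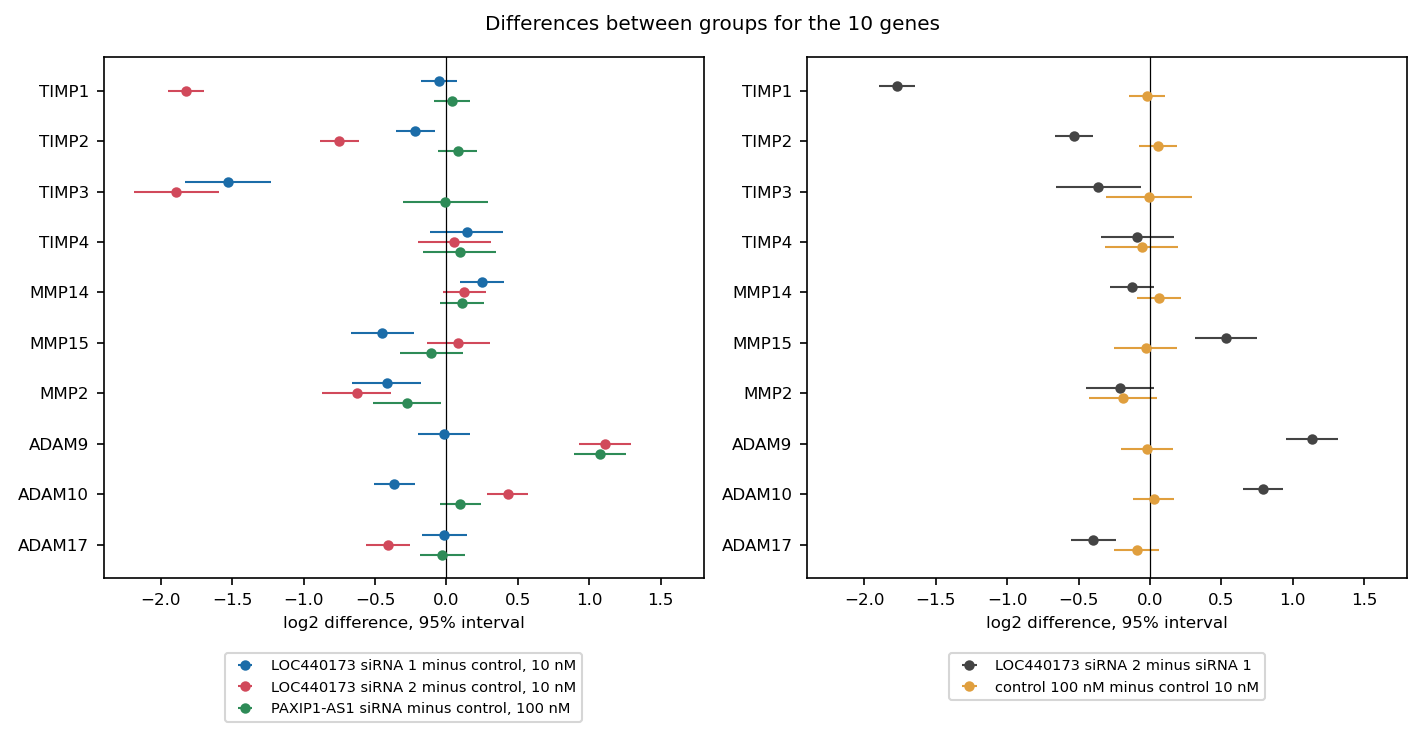
Log2 difference (x axis) with its 95% interval from the fit, not adjusted for the number of genes, for each of the 10 genes. Left, each target siRNA minus the control at its own dose; right, siRNA 2 minus siRNA 1 and the 100 nM control minus the 10 nM control. TIMP1 and ADAM9 have the widest gap between the LOC440173 siRNAs (-1.77 and 1.13), and differences between control doses lie between -0.19 and 0.06.

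The contrast of siRNA 2 with siRNA 1 asks how far 2 siRNAs against the same RNA at the same dose differ. The choice of genes did not use it, but it shares arrays with the contrasts that the choice rests on. For TIMP1, TIMP3 and ADAM9, the 3 genes named for their levels, it is therefore given as a difference with its 95% interval and no p. TIMP1 differed by -1.77 (-1.90 to -1.64), which is 29.3% of its siRNA 1 level, and ADAM9 by 1.13 (0.95 to 1.31; 2.19-fold). TIMP3 differed by -0.36 (-0.66 to -0.06), and this value moved with a single array: it was -0.59 without siRNA 2 replicate 2 and -0.13 without siRNA 2 replicate 1.

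The other 7 genes were tested in this contrast. Between siRNA 2 and siRNA 1, ADAM10 rose by 0.79 (SE 0.062; 1.73-fold; limma, adjusted p = 3.61e-05) and MMP15 by 0.53 (SE 0.095; 0.0027), each higher on both arrays. TIMP2 fell by 0.53 (SE 0.058; limma, adjusted p = 0.000211) and ADAM17 by 0.40 (SE 0.068; 0.00223), each lower on both arrays. TIMP4, MMP14 and MMP2 did not pass the threshold, at -0.09 (95% interval -0.34 to 0.17), -0.12 (-0.28 to 0.03) and -0.21 (-0.45 to 0.03). Calls were thus made for 4 of these 7 genes, 2 higher and 2 lower. In this contrast 37.1% of all genes were called (18.2% higher and 19% lower), so 4 of 7 is not a result about these genes as a group. The median difference over all 10 genes was -0.17 beside -0.05 over all genes.

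The control siRNA at 100 nM was compared with the same siRNA at 10 nM to measure the background of dose. The fit called 0 of 18404 genes (0% in each direction) and 0 of the 10 genes, and 692 genes (3.76%) but none of the 10 had an unadjusted p under 0.05 in limma. Differences ran from -0.19 (SE 0.10) for MMP2 to 0.06 for MMP14, with TIMP1 at -0.02, TIMP3 at -0.01 and ADAM9 at -0.02. The dimmer TIMP3 probe set differed by 0.25 (SE 0.15). A missed threshold with 2 arrays a group does not show that the doses act alike. The interval for MMP2 was -0.43 to 0.05.

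The synapsin genes that hold TIMP1, TIMP3 and TIMP4 encode proteins that tether synaptic vesicles. SYN1 rose with siRNA 1 by 0.39 (limma, adjusted p = 0.0301, lost in 4 of 17 alternatives), where TIMP1 was near control, and differed by 0.18 (0.267) with siRNA 2, where TIMP1 was low. SYN3 differed by -0.07 with siRNA 1 (limma, adjusted p = 0.537) and rose by 0.27 with siRNA 2 (0.0295, but called in only 7 of 17 alternatives), while TIMP3 was low with both. SYN2, which holds TIMP4, fell by 0.51 with siRNA 1 (limma, adjusted p = 0.00263) and differed by -0.03 with siRNA 2 (0.846). With the PAXIP1-AS1 siRNA the 3 synapsins differed by -0.00, -0.05 and -0.10 and none was called.

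**Figure D3:**
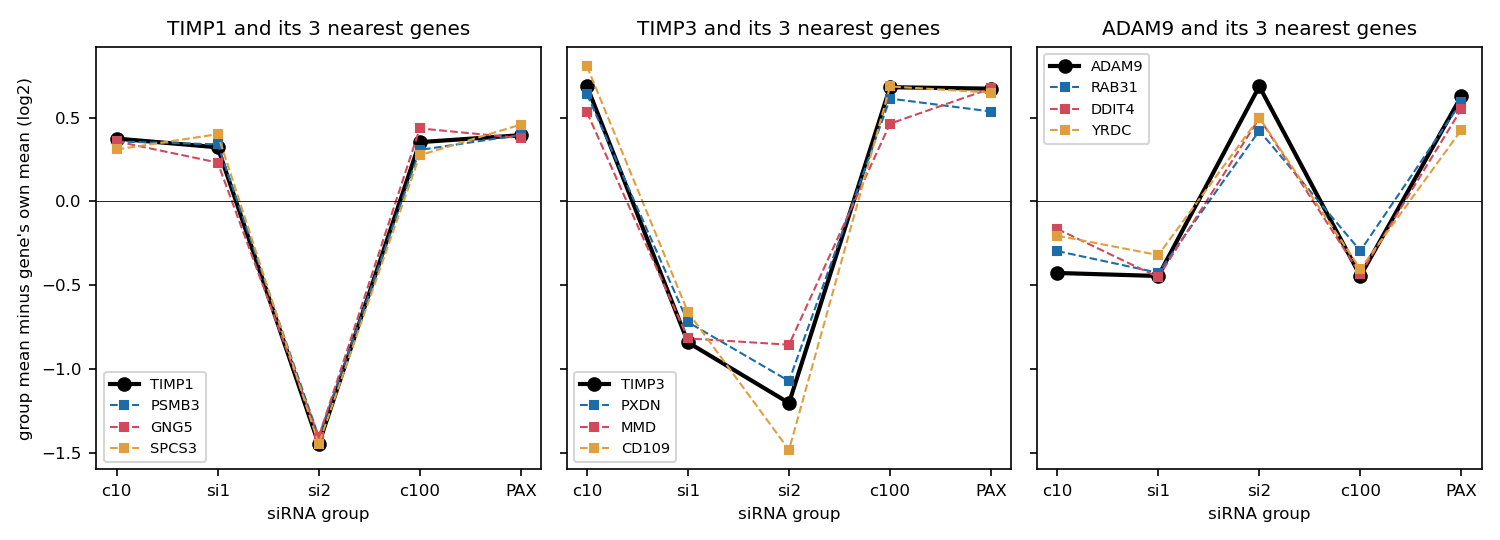
Group mean minus each gene's own mean over all 10 arrays (y axis, log2) in the 5 groups (x axis, c10, control at 10 nM; si1 and si2, LOC440173 siRNAs; c100, control at 100 nM; PAX, PAXIP1-AS1 siRNA), for TIMP1, TIMP3 and ADAM9 and the 3 genes nearest to each. The nearest genes of TIMP1 were each -1.76 from control with siRNA 2, beside -1.82 for TIMP1.

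The genes nearest to each pattern were found by the root mean square difference of centred levels over the 10 arrays, among 18404 genes. For TIMP1 they were the proteasome subunit PSMB3 (0.045), the G protein subunit GNG5 (0.073) and the signal peptidase subunit SPCS3 (0.084). Each was -1.76 from control with siRNA 2, and with siRNA 1 they differed by -0.02, -0.13 and 0.09. For TIMP3 the nearest were the peroxidase PXDN (0.161), MMD (0.211) and the surface protein CD109 (0.239), farther off than those of TIMP1. PXDN differed from control by -1.36 with siRNA 1 and -1.71 with siRNA 2, MMD by -1.35 and -1.39, and CD109 by -1.47 and -2.29. For ADAM9 they were the small GTPase RAB31 (0.162), the stress-induced mTOR inhibitor DDIT4 (0.167) and the tRNA-modifying enzyme YRDC (0.184). RAB31 was higher by 0.72 with siRNA 2 and 0.89 with the PAXIP1-AS1 siRNA, DDIT4 by 0.66 and 0.99, and YRDC by 0.70 and 0.83. Since these genes were selected for being alike, these values are descriptions.

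Other genes of metalloprotease biology were taken as 7 lists, of which 153 of 161 genes were measured. The lists, which include the synapsins above, were chosen with earlier results of these data known. Their p-values are therefore not independent tests. From here on, each gene named passed the threshold in the fit and under each alternative in which it was tested, unless said otherwise, and that narrowing was made after the values were seen. Between siRNA 2 and siRNA 1, 37 of the 153 rose and 23 fell, beside 18.2% and 19% of all genes. Of 19 other matrix metalloproteases, 2 rose and 1 fell: MMP16, a membrane-type protease related to MMP14 and MMP15, rose by 1.44 (SE 0.10; limma, adjusted p = 2.15e-05). Of 17 other ADAMs, 6 rose and 2 fell. The rises included ADAM23, a neuronal adhesion protein without protease activity, by 1.32, ADAM19, a neuregulin sheddase, by 0.70, and ADAM32 by 0.64.

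**Figure D4:**
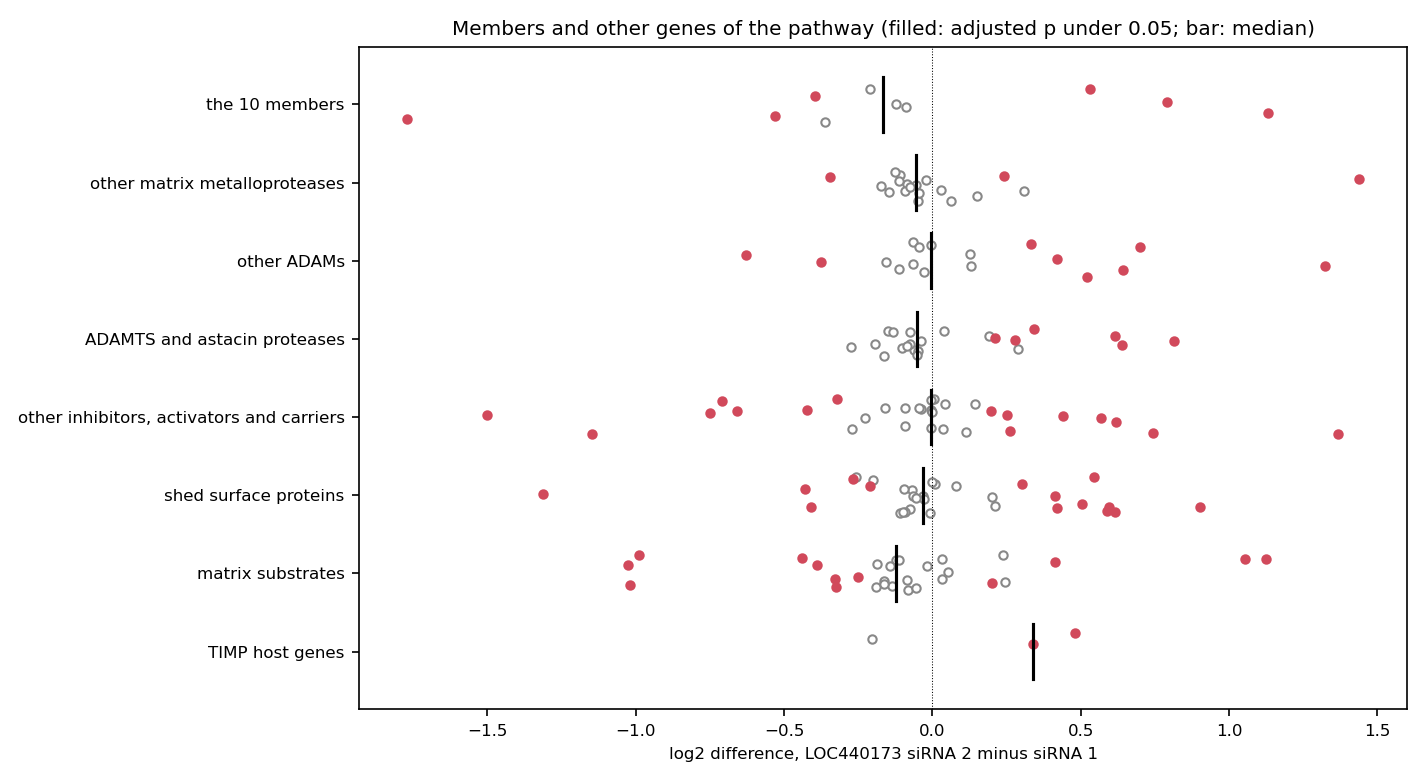
Log2 difference of siRNA 2 minus siRNA 1 (x axis) for each measured gene of the 10 followed here (top line) and of 7 lists of related genes (rows). Each point is a gene, filled where the adjusted p is under 0.05, and the vertical bar is the median of the list. In most lists filled points lie on both sides of 0, and all 6 filled ADAMTS and astacin genes lie above it.

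Of 22 ADAMTS and astacin proteases, 6 rose between siRNA 2 and siRNA 1 and 0 fell. ADAMTS1 and ADAMTS9, which cut versican and aggrecan, rose by 0.61 and 0.64, and the meprin subunit MEP1B by 0.82. MEP1B read low, at 4.56 with siRNA 1 and 5.37 with siRNA 2, below the array medians. Of 31 other inhibitors, activators and carriers, 8 rose and 7 fell. LRP2, the endocytic receptor megalin of the proximal tubule, rose by 1.37, the proprotein convertase PCSK6 by 0.74 and TSPAN33, a tetraspanin that carries ADAM10 to the surface, by 0.62. The other listed TSPAN genes, named whatever their calls, did not move together. TSPAN15 fell by 0.71, TSPAN5 and TSPAN14 rose by 0.25 and 0.20, and TSPAN17 differed by -0.00. PLAT, tissue plasminogen activator, fell by 1.5, PCOLCE, an enhancer of procollagen cleavage, by 1.15 and LRP1, a receptor that clears TIMPs and proteases, by 0.75. The endocytic receptors LRP1 and LRP2 thus changed in opposite directions.

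Among 32 shed surface proteins, 9 rose and 5 fell between siRNA 2 and siRNA 1. The adhesion protein ALCAM rose by 0.90, the receptor ERBB4 by 0.62 and NOTCH1 by 0.59, while E-cadherin (CDH1) fell by 1.31, NOTCH3 by 0.43 and APLP2 by 0.41. Among 29 matrix substrates, 4 rose and 8 fell: the laminin chain LAMC1 rose by 1.12 and NID1, which links laminin to collagen IV, by 1.05, and fibronectin (FN1) fell by 1.03, versican (VCAN) by 1.02 and SPARC by 0.99. Median differences of these lists were -0.03 and -0.12, beside -0.05 over all genes.

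Against the 10 nM control, siRNA 1 raised 11 of the 153 list genes and lowered 46, beside 12.1% higher and 16.7% lower among all genes. Of 17 other ADAMs 5 fell and 0 rose, with ADAM23 at -0.74, ADAM15 at -0.73 and ADAM19 at -0.49, and of 22 ADAMTS and astacin proteases 7 fell and 1 rose, with ADAMTS1 at -0.81, ADAMTS9 at -0.69 and ADAMTS3 at -0.59. MMP16 fell by 0.60, the only call among 19 matrix metalloproteases. Of 31 inhibitors, activators and carriers 11 fell and 2 rose. The convertases PCSK6 (-0.85) and FURIN (-0.67), which remove the inhibitory prodomain of ADAMs and membrane-type MMPs, both fell. The other listed convertases, named whatever their calls, differed less, PCSK7 by -0.26 and PCSK5, which was not called, by -0.13. EFEMP1, a fibulin that binds TIMP3, also fell (-0.71), while PCOLCE rose by 0.68.

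Of 32 shed surface proteins 11 fell and 4 rose with siRNA 1: NOTCH1 fell by 1.04, the prion protein PRNP by 0.98 and the chemokine CXCL16 by 0.80, and CDH1 rose by 0.72. Of 29 matrix substrates 10 fell and 3 rose, with NID1 at -1.03, NID2 at -0.86 and FN1 at -0.67, and with LAMC1 higher by 0.31. The medians of all 7 lists together and of all genes were -0.03 and 0.05.

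With siRNA 2 against the same control arrays, 20 of the 153 list genes rose and 34 fell, beside 12.5% and 17.4% of all genes. This total of 54 was 34 with only the groups compared. The other ADAMs rose in 5 of 17 and fell in 1: ADAM32 rose by 0.75 and ADAM23 by 0.58, and ADAM15 fell by 0.60. MMP16 rose by 0.84, in a list with 2 rises and 0 falls. ADAMTS and astacin proteases rose in 2 of 22 and fell in 3, with MEP1B at 0.69, ADAMTS20 at -0.50 and the tolloid protease TLL1 at -0.41. The control level of MEP1B was low, at 4.68. The inhibitors, activators and carriers rose in 4 of 31 and fell in 9, with PLAT at -1.63, EFEMP1 at -1.37, LRP1 at -0.83 and LRP2 at 0.85.

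Of the shed surface proteins 5 of 32 rose and 12 fell with siRNA 2. CXCL16 fell by 1.07, CDH1 by 0.59 and the growth factor HBEGF by 0.50, and ALCAM rose by 0.67, N-cadherin (CDH2) by 0.55 and EFNA5 by 0.40. Of the matrix substrates 1 of 29, LAMC1 (1.44), rose and 9 fell, among them FN1 (-1.70), SPARC (-1.25) and VCAN (-1.06). ADAM23, MMP16 and CDH1 thus stood on opposite sides of the shared control with the 2 siRNAs, as ADAM10 did, whereas ADAM15, EFEMP1, CXCL16 and FN1 were lower with both.

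With the PAXIP1-AS1 siRNA, 9 of the 153 list genes rose and 6 fell, beside 2.86% and 1.76% of all genes. Counts were 0 of 19 for the other matrix metalloproteases, 1 rise and 1 fall each among 17 ADAMs and 22 ADAMTS and astacin proteases, and 3 rises and 1 fall each among the inhibitors, activators and carriers and the shed surface proteins. Of the matrix substrates 1 rose and 2 fell. Only LAMC1, which rose by 0.68 (limma, adjusted p = 0.00126), and LRP2, which rose by 0.60 (0.00168), were called under all alternatives. The count of 15 list genes was 2 or 3 without either 100 nM control or either PAXIP1-AS1 siRNA replicate, 9 without either siRNA 1 replicate, 5 with every probe set on its own, 2 with only the groups compared and 11 to 20 under the other alternatives. Between the control doses no list gene was called.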

How the data were processed

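RNA of 10 HEK-293 samples was read on Affymetrix arrays, and each sample's group was taken from its labels. The deposited values are log2 levels, 1 column per array, and the submitters' processing notes name RMA and limma with no version. The genome build is not given in the sources used here. Scanner intensities were not used, so the level above background is unknown, and the number of arrays limits the precision. Of 32321 probe sets, 19158 had 1 gene symbol, 1388 several and 11775 were not listed. The brightest probe set stood for a gene, which left 18404 genes.

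All 10 arrays entered 1 fit (limma 3.58.1, R 4.3.3) with a mean per group and eBayes (5 residual and 2.87 prior degrees of freedom). P-values are two-sided and adjusted over all 18404 genes by Benjamini-Hochberg, and called means an adjusted p under 0.05. An exact permutation test of 2 against 2 arrays cannot go below p = 0.333, so calls rest on the pooled spread, which may be technical. The code was tested on simulated data.

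The genes followed and the 7 lists were chosen with earlier results of these data known. Genes named from a list were up to 3 each way with the largest difference among those called, and the 3 genes nearest to TIMP1, TIMP3 and ADAM9, besides the 2 siRNA targets. Results were recomputed with a second quantile normalization, with probe sets averaged per gene or each on its own, without genes under the median level, with only the groups compared, with a trend and robust prior, with array weights, with the replicate number as a block, and without each array in turn.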

Additional observations from a re-analysis of the deposited data

Results flagged for a closer look

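Between LOC440173 siRNA 2 and siRNA 1, used at the same dose against the same RNA, the test of the difference itself passed for 4 of the 7 genes not named for their levels, where 37.1% of all genes were called. TIMP2 differed by -0.53, ADAM17 by -0.40, ADAM10 by 0.79 and MMP15 by 0.53 (log2, siRNA 2 minus siRNA 1). TIMP1 differed by -1.77 and ADAM9 by 1.13, which are descriptions, since these genes were chosen for their levels. The siRNAs also left different levels of LINC02893 itself, 51.4% and 27.0% of control, and the part of this in these differences was not tested.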

How the results depend on the processing

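Over 880 values of the 10 genes under an alternative, 22 changed sign, each of a gene whose difference was at most 0.09 in size. The side of the threshold changed in 21: 17 in siRNA 1 against control (TIMP2 in 7, MMP14 in 7, MMP2 in 2 and MMP15 in 1) and 4 for TIMP3 between the siRNAs. The genes were chosen with the contrasts against control known, and TIMP3 was named for its level. These 21 therefore describe the dependence on processing and are not tests of the genes. The calls of TIMP2, MMP15, ADAM10 and ADAM17 between siRNA 2 and siRNA 1 held in each alternative in which the gene was tested. MMP2, MMP14, MMP15 and TIMP4 are below the median of the mean levels of all genes (7.66, not the array medians) and were not tested when such genes were left out. Against the 10 nM control siRNA 1 called 5301 genes, 3494 with only the groups compared and 3294 to 5663 with an array left out, the lowest without siRNA 1 replicate 1 and 3423 without its replicate 2. For siRNA 2 the fit called 5512 genes, 2788 with only the groups compared and 4190 to 5155 with an array left out, and between the siRNAs 6836 genes, 5229 to 7152 with an array left out. For the PAXIP1-AS1 siRNA it called 850 genes, 432 with every probe set on its own, 1879 with dim genes left out, 1784 with a trend and robust prior, 1544 with array weights and 181 with only the groups compared. With an array left out this count was 110 to 895: 135 and 187 without the 100 nM control replicates, 117 and 110 without the PAXIP1-AS1 siRNA replicates and 477 without either siRNA 1 replicate. The cause was not tested. With the replicate number as a block the counts were 6739 and 6329 for siRNA 1 and 2, 7777 between them and 1325 for the PAXIP1-AS1 siRNA. Replicate differences of siRNA 1 correlated at 0.0677 to 0.0904 with those of the other groups, and those of the other 4 groups at 0.293 to 0.529 with each other. Since not every pair was above 0.1 and the labels name no shared batch, the numbers were not taken to pair the arrays. The other 4 groups did deviate together, and the siRNA 1 arrays did not deviate with them. These arrays enter both siRNA 1 against control and siRNA 2 against siRNA 1, and the part of this in those contrasts was not tested. Between the control doses 0 genes were called in every alternative.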
